A study of Homo sapiens with 9 samples.

Results

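Cadherins are the calcium-dependent receptors that join a cell to its neighbours, and catenins tie their tails to the actin cytoskeleton. Transcripts of 10 such genes were looked for by gene symbol: the cadherins CDH1, CDH2, CDH3, CDH6, CDH11 and CDH13, and the catenins CTNNA1, CTNNB1, CTNND1 and JUP. Of these, 8 had a transcript cluster, the set of probes that stands for a gene on the array, among the 21448 clusters tested. CDH13 and CTNND1 had none under their own symbol and are not analysed here.

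The arrays came from ACC-MESO-1, an established mesothelioma line, from a cancer that arises in the pleura, the mesothelial sheet around the lungs. Cells carried a control short hairpin RNA (Control, arrays 1 to 3) or 1 of 2 hairpins against the histone demethylase LSD1, ShLSD1 #1 (arrays 4 to 6) and ShLSD1 #2 (arrays 7 to 9). All cells were grown in RPMI-1640 with serum and antibiotics, and 100 ng of total RNA was labelled for each Clariom S array. The title of the study names the mesenchymal phenotype of mesothelioma, of which the balance of cadherins is a classical readout. The labels give no time after infection and do not tell whether arrays of a group are separate infections, so p-values measure the spread between arrays, which may be technical. The whole study uses 1 cell line, the level of LSD1 was not analysed here, and in bulk RNA fewer expressing cells and less RNA per cell cannot be told apart.

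In textbook cell biology the extracellular domains of classical cadherins bind the same kind of cadherin on the next cell. Their tails hold p120-catenin (CTNND1) near the membrane and either beta-catenin (CTNNB1) or plakoglobin (JUP) further along, and these bind alpha-catenin (CTNNA1), which reaches actin. Carcinomas with an epithelial character usually carry E-cadherin (CDH1), whereas mesothelial cells and mesothelioma are known for N-cadherin (CDH2). Free beta-catenin also enters the nucleus and works with TCF/LEF factors on target genes of Wnt signalling.

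Values are log2 signals, so a difference of 1 is a 2-fold change. A signal counted as above background when it exceeded the 95th percentile of 612 negative control probe sets on the same array, which lay between 6.93 and 7.54. Between 42.0% and 46.2% of clusters exceeded it, and array medians ran from 6.39 to 6.43. Of the mesothelial markers, MSLN, KRT7, KRT8 and KRT18 were above background on all 9 arrays, whereas CALB2 and KRT5 were below it on all 9. The mean signal of 15 mesothelial markers was 7.45 to 7.67 in Control, 7.65 to 7.81 in ShLSD1 #1 and 7.68 to 7.76 in ShLSD1 #2, and 7 of the 15 were below background on all 9 arrays. Its members moved in both directions: MSLN fell by 0.85 and 0.95 (limma adjusted p = 0.00729 and 0.00482), WT1 rose by 0.84 and 0.75 (0.0156 and 0.0304) and UPK3B by 1.33 and 1.34 (0.00325 and 0.00341). WT1 and UPK3B exceeded background on some arrays only, so their fitted changes include values under it. The mean signal of 7 fibroblast markers was 6.61 to 6.80, 7.14 to 7.19 and 7.19 to 7.29, with COL1A2 and PDGFRB above background on all 9 arrays and COL1A1, DCN, PDGFRA and DPT below it on all 9. The part of these shifts in the changes of cadherins and catenins was not tested. Of 6 leukocyte markers PTPRC, CD3E, CD14 and LYZ were below it on all 9 arrays and CD68 and CSF1R above it on all 9. Of 7 endothelial markers 6, PECAM1 and VWF among them, were below it on all 9 and EGFL7 was above it on all 9. The mean signal of the hybridization spike-ins split the arrays into a high class (11.2 to 11.4; Control, and replicates 7 and 9 of ShLSD1 #2) and a low class (10.8 to 10.9; ShLSD1 #1, and replicate 8 of ShLSD1 #2). The spike-ins are added transcripts and not RNA of the cells. Because every Control array is of the high class and every ShLSD1 #1 array of the low class, class and hairpin cannot be told apart for ShLSD1 #1 without leaning on the ShLSD1 #2 arrays. The class term of a fit blocked on class therefore rests on replicate 8 against replicates 7 and 9 of ShLSD1 #2. For ShLSD1 #2 that fit is the same as omission of replicate 8. For ShLSD1 #1 its standard error is larger, and the part of lost precision in a call that ended there was not tested.

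Among the cadherins, P-cadherin fell with both hairpins, though with ShLSD1 #1 the call ended in the fit blocked on spike-in class. N-cadherin did not pass the test with either hairpin, and E-cadherin was below background on every array. Among the catenins, plakoglobin fell with ShLSD1 #1, a call that ended when the fit was blocked on spike-in class, and beta-catenin and alpha-catenin did not pass the test with either hairpin. By limma with Benjamini-Hochberg adjustment over all clusters at 0.05, 2 of the 8 genes (25%) were called with ShLSD1 #1, CDH3 and JUP, against 15.8% of all clusters (7.85% higher and 7.94% lower); both genes were lower. Blocked on spike-in class, 0 of the 8 were called with ShLSD1 #1 (CDH3 adjusted p = 0.201, JUP 0.895). With ShLSD1 #2, 2 of the 8 were called, CDH3 lower and CDH1 higher, against 13.2% of all clusters (6.56% higher and 6.63% lower). Of the 5 genes above background on all 9 arrays, 2 were called with ShLSD1 #1 and 1 with ShLSD1 #2, against 28.6% and 24% of all clusters of that kind. Such shares are close to the background and say nothing particular about the family. CDH3 was the 1 gene of the 8 called with both hairpins, and 10.4% of all clusters were called with both in 1 direction (5.32% lower and 5.11% higher). Between the hairpins 0 of the 8 were called, as was 0% of all clusters. The median log2 change over the 8 genes was -0.11 with ShLSD1 #1 and -0.12 with ShLSD1 #2, and over all clusters 0.030 and 0.022. Both contrasts share the same 3 Control arrays.

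**Figure D1:**
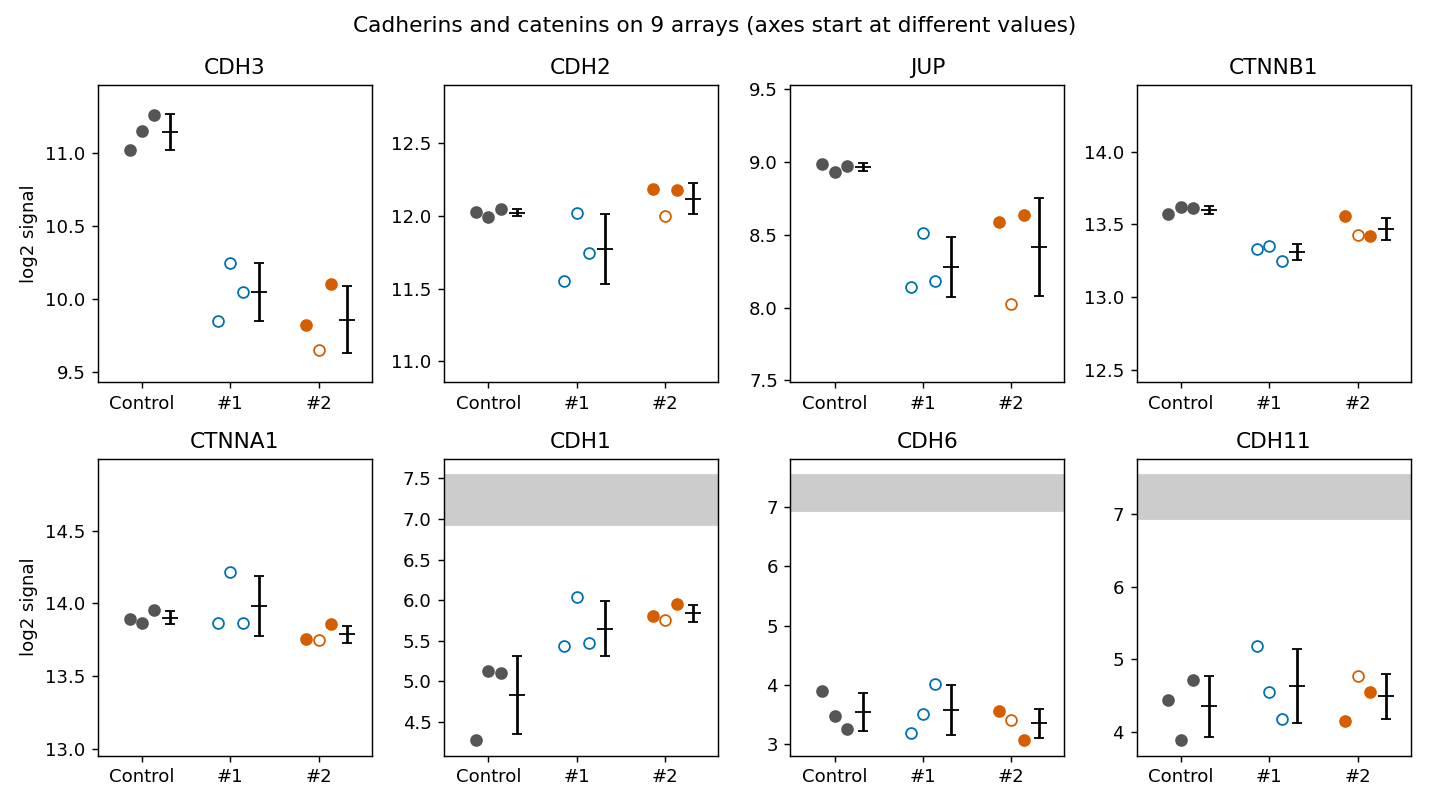
Log2 signal of 8 cadherin and catenin genes on each array by group, with the mean and SD (n = 3) beside the points. Open points mark arrays of low spike-in signal and the grey band the range of the negative control percentile (6.93 to 7.54), and all 6 hairpin arrays of CDH3 lie below its 3 Control arrays.

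CDH3 encodes P-cadherin, a classical cadherin of basal epithelial cells that is also found in some carcinomas. Its log2 signal was 11.02, 11.16 and 11.27 on the Control arrays. It was 9.85, 10.24 and 10.05 on ShLSD1 #1 replicates 4, 5 and 6, and 9.82, 9.65 and 10.10 on ShLSD1 #2 replicates 7, 8 and 9. Every hairpin array was lower than every Control array, and the hairpin groups overlapped each other. Group means were 11.15 ± 0.12 in Control, 10.05 ± 0.20 in ShLSD1 #1 and 9.86 ± 0.23 in ShLSD1 #2 (SD, n = 3). CDH3 fell by 1.10 ± 0.15 with ShLSD1 #1 (SE, limma, adjusted p = 0.00135), a 2.14-fold decrease. With ShLSD1 #2 it fell by 1.29 ± 0.15 (adjusted p = 0.000574), a 2.44-fold decrease. The 95% interval of the change ran from -1.45 to -0.75 with ShLSD1 #1 and from -1.64 to -0.94 with ShLSD1 #2. The difference between the hairpins was 0.19, with an interval from -0.16 to 0.53 (adjusted p = 0.802). Groups that do not overlap were common on these arrays, at 35% of clusters for ShLSD1 #1 and 32.1% for ShLSD1 #2.

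The CDH3 change with ShLSD1 #2 passed under every alternative run. Among arrays of high spike-in signal alone it was -1.18 (adjusted p = 0.0112). With ShLSD1 #1 the call held under every alternative but a fit blocked on spike-in class. There the change was -0.79 ± 0.26 (SE, limma, adjusted p = 0.201), against an SE of 0.15 as reported. In RefSeq gene order CDH3 and CDH1 are neighbours among protein-coding genes on chromosome 16. The 5 genes whose values over the 9 arrays were closest to those of CDH3, each gene centred on its own mean, were PCGF5, PARP3, CXCL16, PML and COX5A. Their root mean square difference from CDH3 was 0.068 for PCGF5 and 0.11 to 0.12 for the others, against a median of 0.61 over the 8325 genes compared. PCGF5, a subunit of Polycomb repressive complexes, changed by -0.99 with ShLSD1 #1 and -1.16 with ShLSD1 #2. All 5 were called lower with both hairpins, as the choice by likeness to a falling gene makes probable.

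CDH2, N-cadherin, is the classical cadherin of neurons, mesenchymal cells and mesothelium. Its log2 signal was 12.03, 11.99 and 12.04 on the Control arrays, 11.55, 12.02 and 11.75 with ShLSD1 #1 and 12.18, 12.00 and 12.17 with ShLSD1 #2. Each hairpin group overlapped Control. The change of CDH2 was -0.25 with ShLSD1 #1 (95% interval -0.55 to 0.055) and 0.10 with ShLSD1 #2 (-0.21 to 0.40), so a change as large as 2-fold lies outside both intervals. Neither passed the test in limma (adjusted p = 0.265 and 0.720). The ShLSD1 #1 mean was 0.35 below that of ShLSD1 #2 (interval -0.65 to -0.042), with an unadjusted p of 0.0298, a value under 0.05 in 7.87% of all clusters, and an adjusted p of 0.594, so the hairpins were not told apart after adjustment. In order of level, ShLSD1 #2 and Control did not differ beyond their spread, and neither did Control and ShLSD1 #1.

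The pair of CDH3 and CDH2 was set side by side with the results of both known, so the difference between their changes is given as a description. Taken relative to CDH2 and to the Control mean, CDH3 moved by -0.90 to -0.82 on the ShLSD1 #1 arrays, by -1.49 to -1.20 on the ShLSD1 #2 arrays and by -0.13 to 0.097 on the Control arrays. The exact two-sided permutation test gave p = 0.1 for each hairpin, the smallest value that 3 arrays against 3 allow, so it cannot pass 0.05; 6 such tests were made (adjusted p = 0.1).

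**Figure D2:**
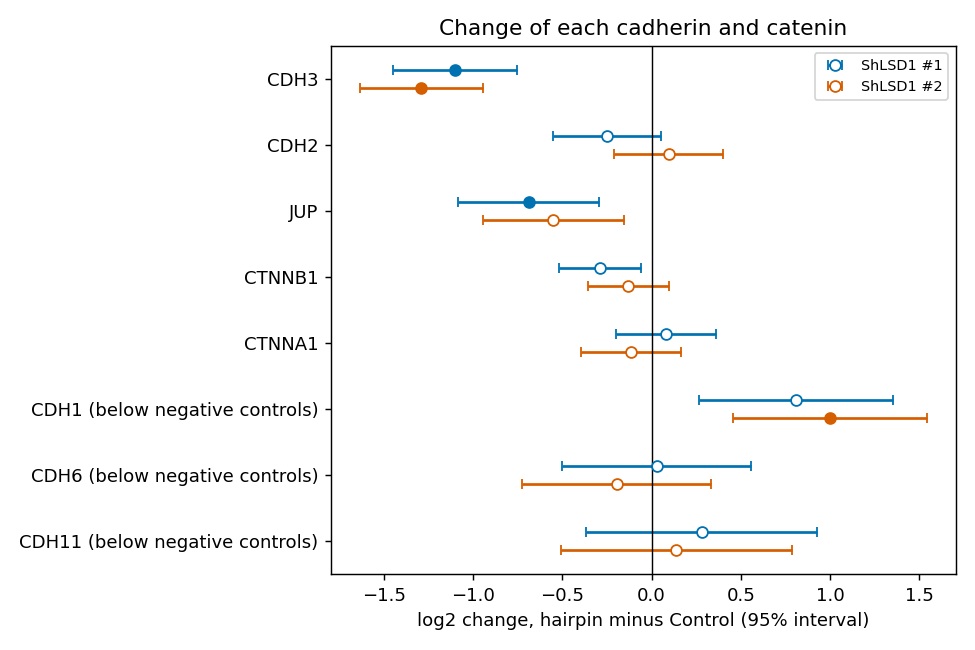
Log2 change of each gene against Control with its 95% interval, for ShLSD1 #1 (blue) and ShLSD1 #2 (orange). Filled points passed the adjusted threshold of 0.05: CDH3 with both hairpins (-1.10 and -1.29), JUP with ShLSD1 #1 (-0.69) and CDH1, measured below background, with ShLSD1 #2 (1.00).

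CDH1, E-cadherin, is the cadherin that holds epithelial sheets together and is the usual readout of an epithelial character. Its log2 signal was 4.28, 5.13 and 5.10 on the Control arrays, 5.43, 6.04 and 5.47 with ShLSD1 #1 and 5.80, 5.75 and 5.96 with ShLSD1 #2. All 9 values lie below the negative control percentile, so no fold is given. Within that range every hairpin array was higher than every Control array, and Control replicate 1 was the lowest of all. The fitted difference was 0.81 ± 0.24 with ShLSD1 #1 (SE, limma, adjusted p = 0.0505) and 1.00 ± 0.24 with ShLSD1 #2 (adjusted p = 0.0244). The ShLSD1 #2 call ended without Control replicate 1, where the difference was 0.72 (adjusted p = 0.0542). It also ended without ShLSD1 #2 replicate 7 (0.0642), replicate 8 (0.0600) or replicate 9 (0.0704). The fit blocked on spike-in class (0.0600) is, for ShLSD1 #2, the same fit as omission of replicate 8. The arrays of high spike-in signal (0.0899) leave replicate 8 out too, so these are not separate results. The ShLSD1 #1 difference passed with clusters of low mean signal left out (adjusted p = 0.0310) and with a trended robust prior (0.0271). These were 2 of 17 alternatives, and the filter on low clusters kept CDH1 although all 9 of its values lie below background. Blocked on spike-in class, the ShLSD1 #1 difference was 0.94 (limma adjusted p = 0.395). At the omission of an array its adjusted p lay between 0.0524 and 0.138.

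The type II cadherins CDH6 and CDH11, known from kidney and from mesenchyme and bone respectively, were below background on all 9 arrays as well. CDH6 ranged from 3.08 to 4.02 and CDH11 from 3.89 to 5.18 over the 9 arrays. For both genes the groups overlapped, and the fitted differences from Control lay between -0.20 and 0.28 with adjusted p between 0.572 and 0.953. These signals show no level that can be ordered between groups, and a transcript present at a level under the background would not be detectable here.

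JUP encodes plakoglobin, which binds cadherin tails in place of beta-catenin and is shared by adherens junctions and desmosomes. Its log2 signal was 8.99, 8.93 and 8.97 on the Control arrays, 8.14, 8.51 and 8.18 with ShLSD1 #1 and 8.59, 8.03 and 8.63 with ShLSD1 #2. Every hairpin array was lower than every Control array, and the lowest value was that of ShLSD1 #2 replicate 8. JUP fell by 0.69 ± 0.18 with ShLSD1 #1 (SE, n = 3, limma, adjusted p = 0.0266), a 1.61-fold decrease. The change with ShLSD1 #2 was -0.55 ± 0.18 (adjusted p = 0.0727). The difference between the hairpins was -0.14, with an interval from -0.53 to 0.26.

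For JUP with ShLSD1 #1, spike-in class and hairpin cannot be told apart, and the part of the class in the change was not tested beyond these fits. The 4 arrays of low class, all of hairpins, held values from 8.03 to 8.51, and the 2 hairpin arrays of high class held 8.59 and 8.63. The Control arrays, all of high class, held 8.93 to 8.99. Blocked on this class, the JUP changes were -0.10 (adjusted p = 0.895) and -0.35 (adjusted p = 0.185). The ShLSD1 #1 call also ended without Control replicate 1 (0.0752), Control replicate 2 (0.0669), Control replicate 3 (0.0719), ShLSD1 #1 replicate 4 (0.0903) or replicate 6 (0.0830), with changes between -0.70 and -0.62. The ShLSD1 #2 change passed with a trended robust prior (adjusted p = 0.0335), with clusters of low mean signal left out (0.0420) and with low values raised to the background (0.0258). Each had the same log2 change and a smaller SE (0.173, 0.170 and 0.162, against 0.176 as reported).

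CTNNB1, beta-catenin, had log2 signals of 13.57, 13.62 and 13.61 on the Control arrays, 13.33, 13.35 and 13.25 with ShLSD1 #1 and 13.56, 13.43 and 13.42 with ShLSD1 #2. The 3 groups did not overlap, in the order Control, ShLSD1 #2 and ShLSD1 #1, but the steps were small. Groups did not overlap in 35% of all clusters for ShLSD1 #1 against Control and in 32.1% for ShLSD1 #2 against Control. Between the hairpins that share was 13.3%. The CTNNB1 difference between the hairpins was -0.16 (limma adjusted p = 0.740). The change was -0.29 with ShLSD1 #1 (95% interval -0.52 to -0.062, limma adjusted p = 0.0867) and -0.13 with ShLSD1 #2 (-0.36 to 0.097, adjusted p = 0.482). The ShLSD1 #1 change passed with clusters of low mean signal left out (adjusted p = 0.0375), with low values raised to the background (0.0100) and with the trended robust prior (0.00523). Each had the same log2 change and a smaller SE (0.089, 0.071 and 0.070, against 0.10 as reported). These were the only 3 of 18 alternatives that passed. Blocked on spike-in class, the ShLSD1 #1 change was -0.23 (limma adjusted p = 0.647). At the omission of an array the adjusted p lay between 0.103 and 0.208. Relative to CTNNB1 on the same array, JUP moved by -0.56 to -0.20 with ShLSD1 #1, by -0.77 to -0.15 with ShLSD1 #2 and by -0.052 to 0.053 on the Control arrays (exact two-sided permutation test, p = 0.1 for each, the smallest possible, which cannot pass 0.05), and this pair too was chosen with its results known.

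CTNNA1, alpha-catenin, had log2 signals of 13.89, 13.86 and 13.95 on the Control arrays, 13.87, 14.22 and 13.86 with ShLSD1 #1 and 13.76, 13.75 and 13.86 with ShLSD1 #2. ShLSD1 #1 replicate 5 stood above the other 8 arrays, and the ShLSD1 #2 arrays lay just below Control. The changes were 0.081 (95% interval -0.20 to 0.36) and -0.11 (-0.39 to 0.17), with limma adjusted p of 0.719 and 0.636. A change of 2-fold lies outside the intervals of both CTNNA1 and CTNNB1 for each hairpin. The cluster that carries the symbol of the read-through gene TMX2-CTNND1 was not counted among the 8 genes and was looked at after its values were seen. Its log2 signal ran from 11.52 to 11.77 over the 9 arrays, with changes of -0.062 and -0.094 (adjusted p = 0.769 and 0.640), and whether its probes read the p120-catenin transcript was not tested.

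Plakoglobin and beta-catenin are close relatives that compete for cadherin tails, so the sequences before their transcription starts are shown for comparison. RefSeq promoter entries for GRCh38.p14 were matched for 4 of the 10 genes, CTNNB1, CTNNA1, JUP and CDH2, and the 250 bases before each start were searched on both strands for the E-box CACCTG, whose reverse complement is CAGGTG. This motif is known to be bound by ZEB and SNAI repressors of CDH1. JUP has 2 annotated starts, both on the minus strand: the upstream window is chr17:41786712-41786961 and the downstream window chr17:41785977-41786226. The CTNNB1 window is chr3:41199255-41199504 on the plus strand. All are printed 5′ to 3′ along the gene, and capitals mark the E-box.
JUP upstream start: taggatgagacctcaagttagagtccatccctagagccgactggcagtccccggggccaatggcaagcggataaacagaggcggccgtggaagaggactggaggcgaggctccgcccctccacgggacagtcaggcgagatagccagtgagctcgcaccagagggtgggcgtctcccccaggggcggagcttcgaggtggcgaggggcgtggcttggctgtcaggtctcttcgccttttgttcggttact
JUP downstream start: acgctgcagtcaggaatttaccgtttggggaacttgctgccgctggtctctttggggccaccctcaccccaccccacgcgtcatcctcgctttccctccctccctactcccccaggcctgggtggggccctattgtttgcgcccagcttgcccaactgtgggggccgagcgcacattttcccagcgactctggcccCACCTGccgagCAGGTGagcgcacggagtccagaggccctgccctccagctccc
CTNNB1: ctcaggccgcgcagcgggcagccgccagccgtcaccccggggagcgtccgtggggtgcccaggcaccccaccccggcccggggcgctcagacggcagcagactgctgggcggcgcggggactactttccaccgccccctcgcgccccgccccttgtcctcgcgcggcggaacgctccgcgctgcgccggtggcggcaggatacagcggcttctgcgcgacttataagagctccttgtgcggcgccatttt
The window of the downstream JUP start held 2 matches, whose first bases lie 54 and 43 bases before the start. The windows of the upstream JUP start, of CTNNB1, of all 4 starts of CTNNA1 and of both starts of CDH2 held 0. Among 35116 RefSeq windows of the same length, 17.5% held the motif on either strand. The array cannot tell from which start JUP was transcribed, and a match of letters is not a binding site.

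Genes around the cadherin-catenin complex were gathered into 8 lists, 114 of whose 119 genes had a cluster. In all, 30 (26.3%) were called with ShLSD1 #1 and 28 (24.6%) with ShLSD1 #2, against 15.8% and 13.2% of all clusters. Of the 57 listed genes above background on all 9 arrays, 25 (43.9%) and 23 (40.4%) were called, against 28.6% and 24% of all such clusters. Medians of the lists are given as fitted and, in a second form, with signals under background raised to it; over all clusters that second form is 0 and 0. Blocked on spike-in class, 4 and 20 were called, and among arrays of high class 12 with ShLSD1 #2. Both of these settings set replicate 8 of ShLSD1 #2 aside, so for that hairpin they are not separate results. The ShLSD1 #1 count fell to 18 without Control replicate 2, 19 without Control replicate 3 and 18 without ShLSD1 #1 replicate 4. The ShLSD1 #2 count fell to 18 without any 1 of the Control replicates and to 15 without ShLSD1 #2 replicate 7.

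Among 12 other classical cadherins, 2 were called higher and 0 lower with each hairpin, against 7.85% and 6.56% of all clusters called higher, and 8 were below background on all 9 arrays. The median log2 change of these 12 was 0.32 and 0.21 as fitted, and 0 and 0 with low signals raised. The 2 were CDH12 and CDH18, type II cadherins best known from the nervous system, which are neighbours on chromosome 5 in RefSeq gene order. CDH18 had log2 signals of 10.37, 10.12 and 10.21 on the Control arrays, 11.89, 11.71 and 11.74 with ShLSD1 #1 and 11.98, 12.08 and 11.88 with ShLSD1 #2. CDH18 rose by 1.54 and 1.74, a 2.91-fold and 3.34-fold increase (limma adjusted p = 3.84e-05 and 1.79e-05). CDH12 was below background on all 3 Control arrays, with a mean of 6.73 ± 0.44 against 9.03 ± 0.12 and 8.94 ± 0.24 (SD, n = 3). With Control set to its background, CDH12 was at least 3.09-fold and 2.90-fold higher (adjusted p = 0.000128 and 0.000162). Both genes kept their calls in the fit blocked on spike-in class and at the omission of any array, and their changes were larger in size than that of CDH3.

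In the list of catenin relatives and actin linkers of the adherens junction, 3 of 16 genes were higher and 1 lower with each hairpin. Of all clusters, 7.85% were called higher and 7.94% lower with ShLSD1 #1, and 6.56% and 6.63% with ShLSD1 #2. The median changes of the list were 0.23 and 0.12 as fitted and 0 and 0 with low signals raised, and 6 genes were below background on all 9 arrays. NECTIN2, an immunoglobulin-like adhesion receptor that sits beside cadherins, fell by 1.37 and 1.20 from a Control mean of 13.03 ± 0.089 (SD, n = 3), with limma adjusted p of 6.42e-05 and 0.000142. CTNNAL1, an alpha-catenin relative, rose by 0.53 and 0.48, and LIMA1, an actin-bundling partner of the cadherin complex, by 0.44 and 0.46. In the desmosome list 1 of 12 genes was higher and 2 lower with each hairpin, and 8 were below background on all 9 arrays (medians 0.074 and -0.068 as fitted, and 0 and 0 with low signals raised). PKP2, a plakophilin that links desmosomal cadherins to desmoplakin, rose by 0.57 and 0.42. DSG2, a desmosomal cadherin, fell by 0.42 and 0.53, and PERP, a membrane protein of desmosomes, by 0.46 and 0.51.

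**Figure D3:**
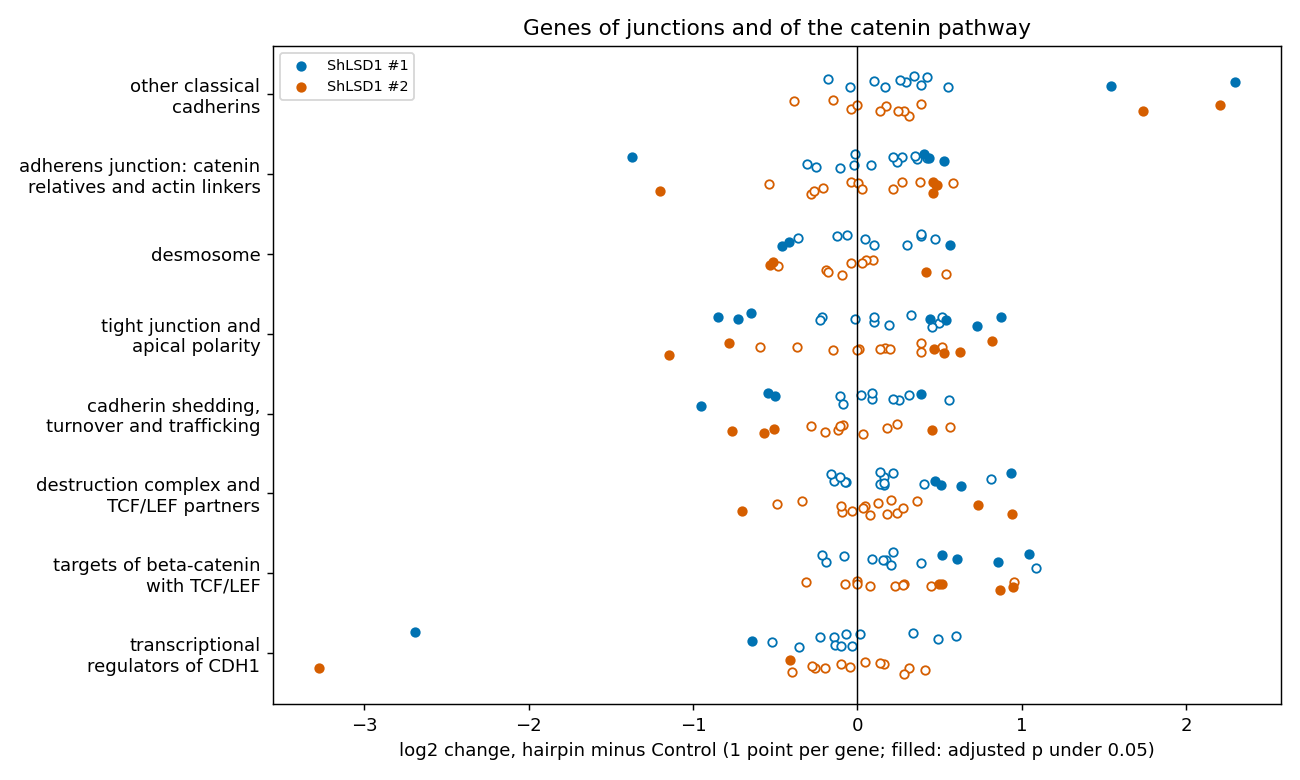
Log2 change of each gene in 8 lists around the cadherin-catenin complex, for ShLSD1 #1 (blue) and ShLSD1 #2 (orange), with filled points past the adjusted threshold. KLF4 lies farthest left (-2.69 and -3.28, fitted values), and CDH12 and CDH18 farthest right.

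Tight junction and polarity genes moved in both directions. Of 17, 4 were higher and 3 lower with ShLSD1 #1, and 4 were higher and 2 lower with ShLSD1 #2, with medians of 0.19 and 0.17 as fitted and 0 and 0 with low signals raised. Over all clusters, 7.85% were called higher and 7.94% lower with ShLSD1 #1, and 6.56% and 6.63% with ShLSD1 #2. The claudins CLDN1 and CLDN4, which seal the space between cells, fell by 0.85 and 0.78 and by 0.73 and 1.15. The polarity protein PARD6B rose by 0.87 and 0.82, the scaffold TJP1 (ZO-1) by 0.73 and 0.62 and the membrane protein OCLN (occludin) by 0.54 and 0.53. Among genes of cadherin shedding, turnover and trafficking, 1 of 13 was higher and 3 were lower with each hairpin, with medians of 0.087 and -0.10 as fitted and 0.022 and -0.10 with low signals raised. ADAM15, a membrane metalloprotease, fell by 0.95 and 0.76, ARF6, a GTPase of endocytosis, by 0.54 and 0.57, and PTPN1, a tyrosine phosphatase, by 0.50 and 0.51.

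On the signalling side of beta-catenin, 4 of 17 destruction complex genes and TCF/LEF partners were higher and 0 lower with ShLSD1 #1, and 2 were higher and 1 lower with ShLSD1 #2 (medians 0.16 and 0.074 as fitted, and 0.14 and 0.024 with low signals raised). Of all clusters, 7.85% were called higher and 7.94% lower with ShLSD1 #1, and 6.56% and 6.63% with ShLSD1 #2. Of the 17, 3 were below background on all 9 arrays. GSK3B, the kinase that marks beta-catenin for degradation, was called with both and rose by 0.94 and 0.73. The other gene called higher with ShLSD1 #2 was TCF7L2, named after its values were seen (0.94 as fitted, limma adjusted p = 0.0425). TCF7L2 was below background on every Control and every ShLSD1 #2 array, so no fold is given for it. Of 14 direct targets, 4 were higher and 0 lower with each hairpin, against 7.85% and 6.56% of all clusters, but 8 of the 14 were below background on all 9 arrays. The medians were 0.21 and 0.28 as fitted, and 0 and 0 with low signals raised. CCND1, cyclin D1, rose by 1.04 and 0.87 (limma adjusted p = 0.000228 and 0.000716). Of the other 3 called with ShLSD1 #1, TNFRSF19 exceeded background on 2 arrays, and RNF43 and SP5 (named after its values were seen) on none, so no fold is given for them. With ShLSD1 #2 the calls were CCND1, TNFRSF19, RNF43 and DKK1, the last also named after its values were seen. DKK1 was above background on all 9 arrays. It rose by 0.52 with ShLSD1 #2 (limma adjusted p = 0.0114), and the change with ShLSD1 #1 was 0.16 (adjusted p = 0.381). Of the 14 targets, 3 were above background on all 9 arrays: CCND1, DKK1 and MYC, the last also named after its values were seen. MYC was not called with either hairpin, with changes of 0.092 and -0.077 (limma adjusted p = 0.737 and 0.810). The TNFRSF19 differences were 0.86 and 0.94 as fitted, and -0.018 and 0.028 with low signals raised, where neither passed (adjusted p = 0.854 and 0.778). AXIN2, a widely used target of the pathway and named after its values were seen, was below background on all 9 arrays.

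Among 14 transcriptional regulators of CDH1, 0 were higher and 2 lower with each hairpin, against 7.94% and 6.63% of all clusters called lower. Of the 14, 7 were below background on all 9 arrays, and the median changes were -0.12 and -0.072 as fitted and -0.034 and 0 with low signals raised. KLF4, a zinc finger factor known as an activator of CDH1 in epithelia, was above background on the 3 Control arrays (mean 8.51 ± 0.13, SD, n = 3) and on none of the hairpin arrays. KLF4 was at least 2.53-fold lower with ShLSD1 #1 and at least 2.54-fold lower with ShLSD1 #2 (adjusted p = 2.12e-06 and 4.54e-07). The others called lower, named after their values were seen, were TWIST2 with ShLSD1 #1 (-0.64, adjusted p = 0.0117) and the repressor ZEB1 with ShLSD1 #2 (-0.41, adjusted p = 0.0429). The change of ZEB1 with ShLSD1 #1 was -0.35 (limma adjusted p = 0.0655). Neither TWIST2 nor ZEB1 was called between the hairpins, as no cluster was.

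Of the 21 genes named from the 8 lists for a call with both hairpins, 10 kept both calls at the omission of each array in turn: CDH12, CDH18, NECTIN2, PARD6B, CLDN1, OCLN, PTPN1, GSK3B, CCND1 and KLF4. The other 11 lost a call at 1 or more omissions, at adjusted p between 0.0504 and 0.129. Blocked on spike-in class, CDH12, CDH18, NECTIN2 and KLF4 kept their calls with both hairpins, and the other 17 lost that with ShLSD1 #1 at adjusted p between 0.0579 and 0.585. All 21 kept their sign in that fit. Its SE with ShLSD1 #1 was larger, for instance 0.24 against 0.13 for GSK3B. Some lost calls had a larger change there, such as GSK3B (1.14 against 0.94), and others a smaller one, such as CLDN1 (-0.75 against -0.85). The parts of class and of lost precision in these calls were not tested. With ShLSD1 #2, 16 kept their call with the block and 11 among arrays of high class, and both settings set replicate 8 of that hairpin aside.

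**Figure D4:**
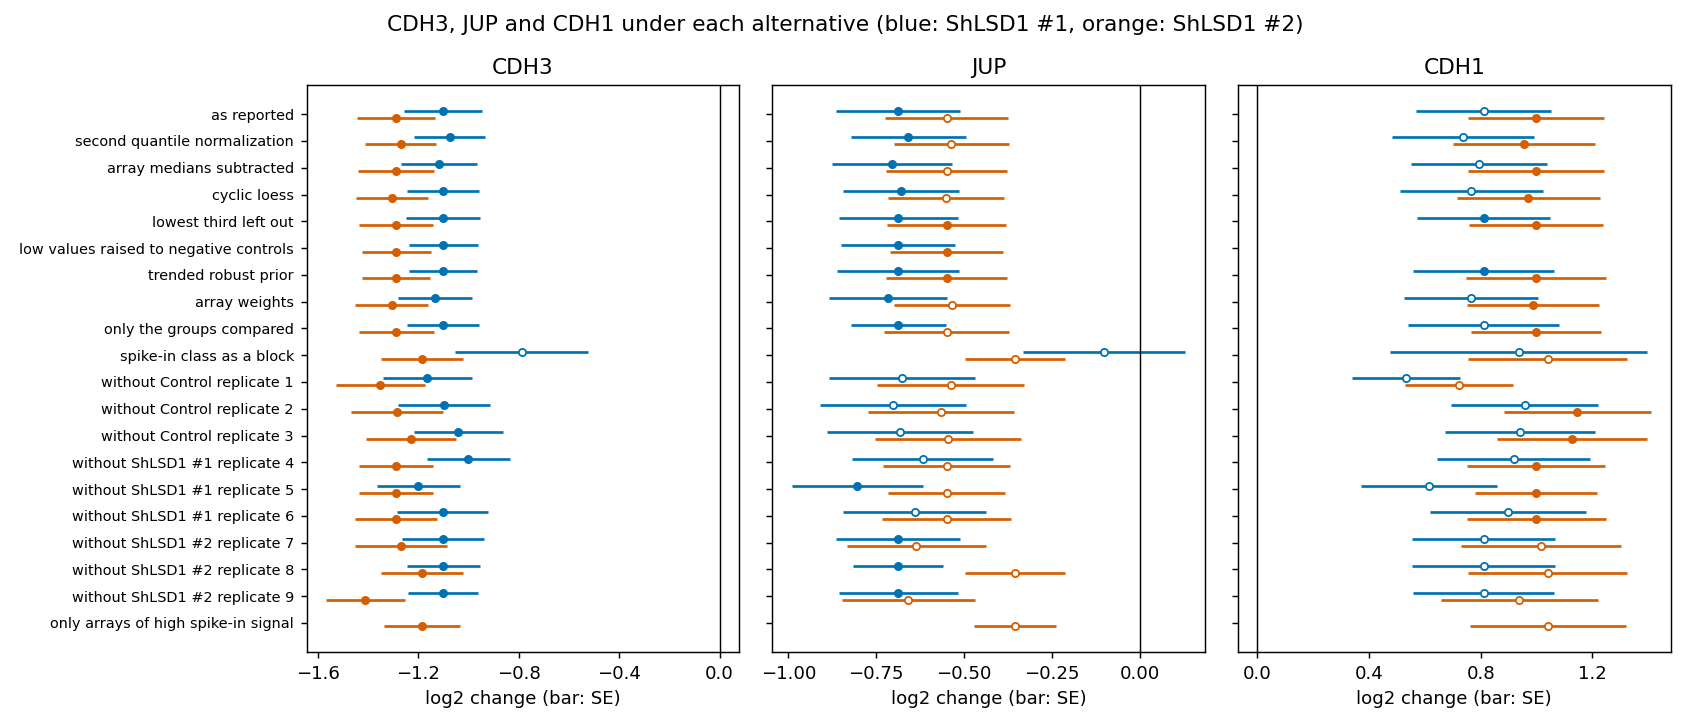
Log2 change of CDH3, JUP and CDH1 against Control with its SE, as reported and under each alternative, with filled points past the adjusted threshold. CDH3 stays between -1.41 and -0.79 throughout, whereas JUP with ShLSD1 #1 reaches -0.10 when blocked on spike-in class.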

How the data were processed

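RNA of 9 ACC-MESO-1 samples was measured on Clariom S arrays, 3 per group. The deposited log2 values were made by the authors with RMA (background correction, quantile normalization and summary per transcript cluster) in Affymetrix Expression Console 1.4, per the submitters' processing notes. RMA writes log2 by default, so base 2 was assumed; its options were not given in the sources used here. RMA values compress low signals and set no gene's level against another's. Of 24351 probe sets, 2903 control probe sets were set aside, and 21448 clusters were tested without a filter. Symbols came from the platform annotation: 17709 clusters had 1 symbol and 3739 none. The test was limma 3.58.1 in R 4.3.3 (lmFit and eBayes without trend, 1 fit of 3 groups, two-sided, Benjamini-Hochberg over all clusters), tested on simulated data. Where 1 group lay below the negative controls, it was set to their mean percentile for a lower bound on the fold. Alternatives were other normalizations, a filter on low clusters, low values raised to 7.25, other priors and weights, only the groups compared, the spike-in class and omission of each array. The genes and lists were chosen with earlier results of these data known. All members were named, and of each list up to 5 genes called with both hairpins, those of largest mean change. The alternatives were added for the 8 lists after their values were seen. The number of arrays limits the precision. Plots used matplotlib 3.10.9.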

Additional observations from a re-analysis of the deposited data

How the results depend on the processing

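No paired analysis was possible because the groups share no replicate number. Of the results for single genes, 1058 changes under an alternative kept their sign and side of the threshold, 119 lost the call, 8 gained it and 15 changed sign. The count of the 8 genes called with ShLSD1 #1, 2 as reported, was 4 with clusters of low mean signal left out, 4 with the trended robust prior, 0 in the fit blocked on spike-in class and 1 to 2 at the omission of an array. With ShLSD1 #2, 2 as reported, it was 3 with clusters of low mean signal left out and with the trended robust prior, 1 with the block, 1 among arrays of high spike-in signal and 1 to 2 at the omission of an array. For ShLSD1 #2 the block and the omission of replicate 8 are the same fit. Counted in the same way, the genes called between the hairpins are given next. Between the hairpins it was 0 under every alternative run; over all clusters limma also called 0 there, with 1687 at an unadjusted p under 0.05. Of the 114 genes in the lists, 30 as reported with ShLSD1 #1, 4 to 35 were called over the other alternatives (4 with the block) and 18 to 30 at an omission, and of 28 with ShLSD1 #2, 12 to 31 were called (12 among arrays of high signal) and 15 to 27 at an omission.

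The sign changes were all in changes that had not passed, apart from TNFRSF19, and their cause was not tested. With ShLSD1 #1, CDH6 went from 0.029 to -0.016 with a second quantile normalization, -0.020 with cyclic loess, -0.011 with array weights, -0.053 with the block, -0.0034 without Control replicate 2, -0.11 without Control replicate 3 and -0.19 without ShLSD1 #1 replicate 6, in a range of -0.19 to 0.22 over omissions. CDH11 went to -0.14 with the block, and with ShLSD1 #2 to -0.089 without Control replicate 2, in a range up to 0.32. CTNNA1 went to -0.037 without ShLSD1 #1 replicate 5, in a range up to 0.14. Between the hairpins, with the block CDH11 went to -0.14 and JUP to 0.25, and CDH11 to -0.13 without ShLSD1 #1 replicate 4 and -0.028 without ShLSD1 #2 replicate 7, in a range up to 0.37. TNFRSF19 with ShLSD1 #1 went to -0.018 with low values raised to the background. CDH6, CDH11 and CDH1 have no value with low values raised, and CDH6 and CDH11 none with clusters of low mean signal left out. Background at 6.93 to 7.54 limits what can be said of CDH1, CDH6 and CDH11.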
